A study of Mus musculus with 8 samples.

Results

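The natriuretic peptide system was read in RNA sequencing of mouse ventricular heart tissue, from 8 genes chosen by name: the peptide genes Nppa, Nppb and Nppc, the receptor genes Npr1, Npr2 and Npr3, and the protease genes Corin and Furin. Of these 8 genes, 7 were among the 13677 genes of the table, and all 7 passed the filter on low values. Nppc had no row and was not analysed here. The groups keep the names the submitters gave them: C with 3 libraries, KO with 2 (numbered 1 and 3) and DKO with 3. The series sets Vhl-deficient against wild-type ventricles in a model with Cre recombinase driven by Wt1, a gene of the epicardium, the outer cell layer of the heart. What C, KO and DKO stand for, the second change of DKO, the age, sex and strain of the mice and which groups carry Cre are not stated in the labels, so each direction is between libraries so labelled. No treatment was applied. Whether each library is a separate animal is not stated either, and the p-values reflect sample-to-sample spread that may be only technical.

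Natriuretic peptides are hormones of the heart that make the kidney excrete salt and water and relax blood vessels. Nppa encodes the precursor of atrial natriuretic peptide and Nppb that of brain natriuretic peptide. The protease corin cleaves the first precursor on the surface of heart muscle cells, and furin cleaves the second inside the cell. Npr1 is the receptor of both peptides and makes cyclic GMP, Npr2 is the receptor of C-type natriuretic peptide, and Npr3 removes peptides from the circulation. In the adult heart Nppa is mainly a gene of the atria, while the fetal ventricle and the ventricle under load express it as well.

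Nppa and Nppb are neighbours on chromosome 4, both on the plus strand (GRCm38, GENCODE M21). Nppb (ENSMUSG00000029019) lies at 147985788 to 147987205 and Nppa (ENSMUSG00000041616) at 148000722 to 148002079, with 13516 bases between them. Their 250 bases before the start site are shown because the results turn on this pair of peptide genes. The sequences are from RefSeq (GRCm38.p6), read 5′ to 3′ on the plus strand, at chr4:148000472-148000721 for Nppa and chr4:147985650-147985899 for Nppb. The RefSeq start of Nppb lies inside the GENCODE gene body, so the end of its window overlaps that annotation. All marked matches of the Nppb window lie within this overlap. Capitals mark matches to 8 motifs searched on both strands.
Nppa: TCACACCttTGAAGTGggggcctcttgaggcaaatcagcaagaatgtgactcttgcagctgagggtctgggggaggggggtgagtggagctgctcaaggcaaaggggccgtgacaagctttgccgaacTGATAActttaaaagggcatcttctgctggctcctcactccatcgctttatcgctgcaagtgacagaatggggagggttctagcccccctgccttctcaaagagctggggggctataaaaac
Nppb: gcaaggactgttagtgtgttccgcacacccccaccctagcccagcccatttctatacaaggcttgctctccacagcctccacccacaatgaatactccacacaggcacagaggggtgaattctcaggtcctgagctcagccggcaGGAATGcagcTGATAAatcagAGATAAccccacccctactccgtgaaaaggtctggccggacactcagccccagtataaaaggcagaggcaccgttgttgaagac

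The Nppa window held the T-box letters GGTGTGA (on the minus strand, from base -250), the NKX2-5 element TNAAGTG (from base -241) and 1 GATA match (TGATAA, from base -122). The Nppb window held the M-CAT letters CATTCC of TEAD factors (on the minus strand, from base -105) and 2 GATA matches, of which TGATAA began at base -95 and the other, AGATAA, at base -84. Positions count back from the RefSeq start, and no matches overlapped. GATA letters (GATA after A or T and before A or G) were thus common to both. Of 32851 RefSeq promoter windows of this length, 26.5% held a GATA match, 10.1% the NKX2-5 element, 12.6% the M-CAT letters and 3.33% the T-box letters. Neither window held the hypoxia response element core (ACGTG or GCGTG), AP-1 (TGANTCA), a CArG box or a MEF2 element. The core letters of the hypoxia response element stood in the windows of Nppc, Npr1, Corin and Furin, and in 38.6% of all windows.

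The libraries held 15028176 to 21202385 reads, and levels are in units of the deposited signal, reads relative to an effective library size. Each of the 7 genes had 91 to 61545 reads in a library, and a count of 0 would allow a signal of 0.104 to 0.283, for counting error only. The scaling factors behind the effective sizes were 0.925 to 0.964 in C, 1.36 to 1.37 in KO and 0.705 to 1.06 in DKO. Scaling by total reads instead moved the median log2 difference of all tested genes from 0.01 to 0.48 in KO versus C. Mitochondrial transcripts took 16.2% and 17.4% of the reads in KO, 23.1% to 29.0% in C and 22.9% to 41.6% in DKO, with DKO 2 the highest. Vhl was 7.26 to 8.97 in C, 8.33 and 8.96 in KO and 8.61 to 11.2 in DKO, so its whole-gene level did not check the labels. Myl2, which encodes the ventricular myosin light chain, was at 3727 to 9569 in the 8 libraries, and the summed level of 10 ventricular muscle markers was 28877 to 30098 in C, 16748 and 17272 in KO and 17578 to 29037 in DKO. Of these 10 ventricular markers Tnni3 was called lower in KO against C, Irx4 higher and 8 in neither direction, with a median log2 difference of -0.28. Skeletal muscle markers summed to 81.3 to 533 in C, 1.72 and 2.11 in KO and 9.36 to 20.8 in DKO, and epicardial markers to 8.84 to 14.3, 29.5 and 31.7, and 10.4 to 17.6. Of 11 skeletal muscle markers 11 were called lower in KO against C, beside 7.01% of all tested genes. In DKO against C 8 of the 11 were called lower, beside 0.0812%, and in DKO against KO 0 were called. The part of the skeletal muscle and epicardial markers in the results was not tested.

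Nppa was high in both KO libraries, at 2423 in KO 1 and 1624 in KO 3. In the C libraries it was 220.3, 429.9 and 245.9. In the DKO libraries it was 245.4, 194.5 and 427.9. The lower of the KO libraries lay above every C and DKO library, while the C and DKO values overlapped. Between KO and C the level of Nppa rose 6.92-fold (95% interval 4.05 to 11.8; adjusted p = 0.000895, limma), with 2023 ± 565 (SD, n = 2) against 298.7 ± 114.3 (SD, n = 3). The rise passed the test under every alternative setting and without any single library, from 2.50 to 3.36 on the log2 scale. Against KO, the DKO level fell by 2.85 on the log2 scale (adjusted p = 0.000892, limma), a comparison that shares the KO libraries with the former. In DKO against C the difference was -0.06 with a 95% interval of -0.75 to 0.63 (adjusted p = 0.97, limma), so changes within that interval are not excluded.

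**Figure D1:**
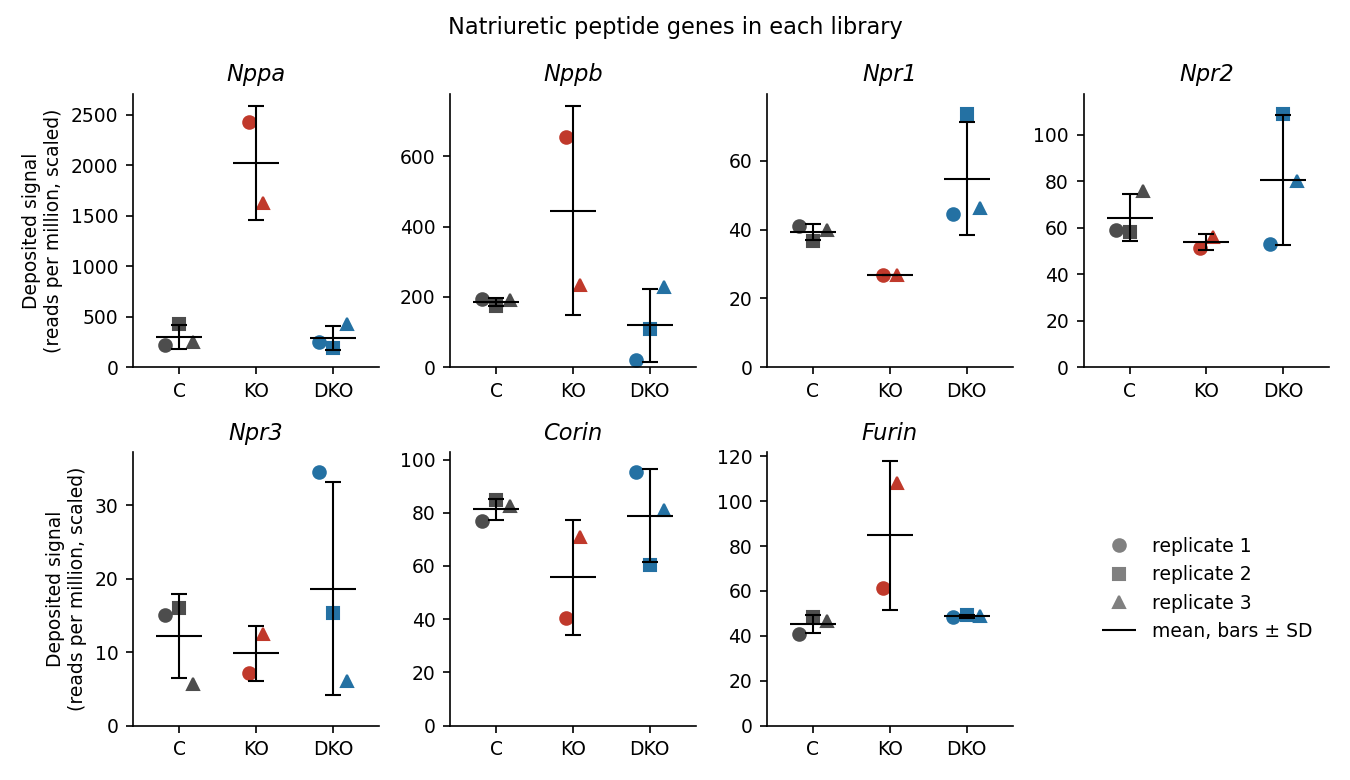
Deposited signal (vertical axis, reads relative to effective library size, from 0) of the 7 genes in the 3 groups (horizontal axis). Points are libraries with the replicate number as symbol, and bars are the mean ± SD. Nppa stands at 1624 and 2423 in KO against at most 429.9 elsewhere, whereas Nppb stands at 235 and 655 in KO and at 21.4 in DKO 1.

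Nppb did not pass the test in any of the 3 comparisons. It was 195.2, 174.1 and 190.02 in C, 655 in KO 1 and 235 in KO 3, and 21.4, 108.9 and 228.4 in DKO 1, 2 and 3. The C libraries were close together, KO 1 stood far above KO 3, and the highest DKO library lay just below KO 3. The highest DKO library was 10.7 times the lowest, against 1.12 times in C and 2.79 times in KO. The value of 21.4 in DKO 1 rested on 464 reads. The difference between KO and C was 1.07 on the log2 scale with a 95% interval of -0.49 to 2.63 (adjusted p = 0.35, limma), although both KO libraries lay above the C libraries. It passed when only C and KO were fitted (adjusted p = 0.0298) and when libraries were scaled by total reads (1.61, adjusted p = 0.0398). Without KO 1 the difference was 0.34 (adjusted p = 0.87), and without KO 3 it was 1.81 (adjusted p = 0.30). DKO against C gave -1.18 (95% interval -2.57 to 0.21; adjusted p = 0.62, limma) and DKO against KO -2.25 (95% interval -3.81 to -0.70; adjusted p = 0.0621, limma). The latter passed without DKO 3 (-2.99, adjusted p = 0.0105), with total reads as the scale (-2.91, adjusted p = 0.00171) and after quantile normalisation (-2.49, adjusted p = 0.0483). It was -1.52 without KO 1 (adjusted p = 0.36) and -2.99 without KO 3 (adjusted p = 0.11). Without DKO 1, the library of lowest Nppb, DKO against KO was -1.31 (adjusted p = 0.0598) and DKO against C -0.24 (adjusted p = 0.84), and without DKO 3 DKO against C was -1.92 (adjusted p = 0.15).

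The ratio of the peptide genes was compared after their values were seen. Nppa was 1.13, 2.47 and 1.29 times Nppb in C, 3.70 and 6.90 times in KO, and 11.5, 1.79 and 1.87 times in DKO. Both KO ratios lay above the C ratios, and DKO 1 had the highest ratio of all 8 libraries, with Nppa at the level of C. On the log2 scale the ratio was 1.72 higher in KO than in C. An exact permutation test (two-sided) gave p = 0.1, the smallest that 3 against 2 libraries allow (Benjamini-Hochberg p = 0.3 over 3 comparisons). For DKO against C the exact p was 0.3 and for DKO against KO 0.6 (Benjamini-Hochberg p = 0.45 and p = 0.6).

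**Figure D2:**
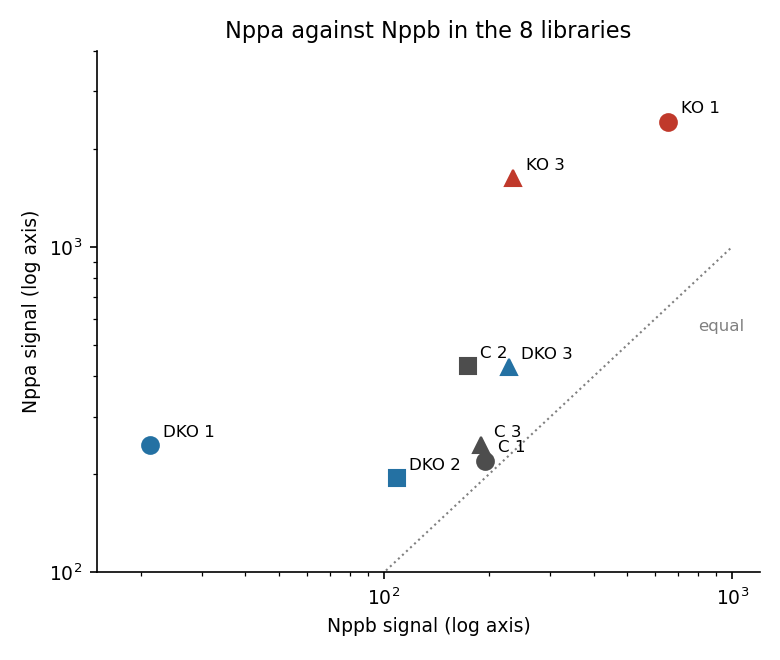
Nppa signal (vertical log axis) against Nppb signal (horizontal log axis) in the 8 libraries, with the group as colour, the replicate number as symbol and a dotted line where they are equal. KO 1 and KO 3 share a high Nppa level but differ in Nppb (655 and 235), and DKO 1 has the Nppa level of C with Nppb at 21.4.

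Nppa is also a marker of the atria, so other atrial genes are given beside it. Of 12 atrial markers 10 were in the table, and their summed level was 110.7 to 262.7 in C, 106.7 and 149.5 in KO and 116.6 to 234.1 in DKO. Myl7, Myl4 and Sln, which encode atrial myosin light chains and the atrial calcium pump regulator sarcolipin, varied within every group. Their sum was 15.5, 134.8 and 4.54 in C, 63.8 and 3.55 in KO, and 40.5, 18.4 and 2.79 in DKO. C 2 and KO 1, the highest library of each group in these genes, were also the highest of their group in Nppa, while DKO 3 had the highest Nppa of DKO with the lowest sum. KO 3 had a sum of 3.55, below every C library, with Nppa at 1624. In KO versus C, Kcnj3 and Stard10 of the atrial list fell and the other 8 did not pass, beside 7.01% of all tested genes called lower.

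**Figure D3:**
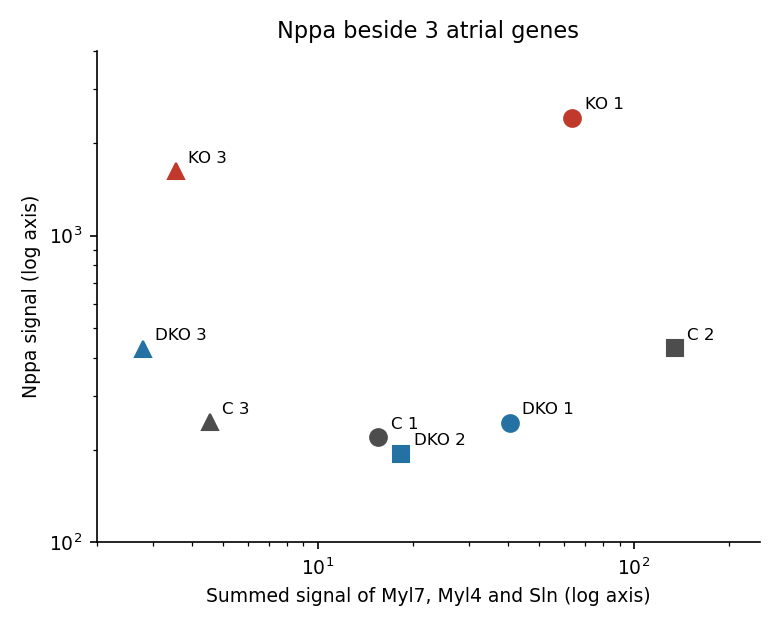
Nppa signal (vertical log axis) against the summed signal of the atrial genes Myl7, Myl4 and Sln (horizontal log axis) in the 8 libraries, with the group as colour and the replicate number as symbol. KO 3 has a sum of 3.55 with Nppa at 1624, and C 2 has a sum of 134.8 with Nppa at 429.9.

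Furin rose in KO and Corin did not pass the test. Furin (ENSMUSG00000030530, chromosome 7, 80388585 to 80405436) was 61.2 in KO 1 and 108.3 in KO 3, against 40.9, 48.5 and 46.6 in C. In DKO it was 48.2, 49.4 and 48.7. Both KO libraries lay above all others, and KO 3 was the higher, the reverse of their order for both peptide genes. The rise over C was 1.78-fold (0.83 on the log2 scale, 95% interval 0.37 to 1.29; adjusted p = 0.0218, limma). It fell short of the threshold without KO 3 (adjusted p = 0.264), C 1 (0.0855), C 2 (0.0525) or C 3 (0.0617). Furin fell by 0.73 on the log2 scale from KO to DKO (adjusted p = 0.0439, limma). That call ended without KO 3 (adjusted p = 0.422) or without any C or DKO library (0.0524 to 0.0708), and held without KO 1 (0.0153). It also ended with no intensity trend (0.0632) and when only those groups were fitted (0.117).

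Corin (ENSMUSG00000005220, chromosome 5, 72300025 to 72504473) was 40.4 in KO 1 and 70.9 in KO 3. The C libraries stood at 76.7, 84.7 and 82.4, and the DKO libraries at 95.2, 60.5 and 80.9. Both KO values lay below C, with KO 1 the lowest of all libraries, while DKO spanned the C range. The difference between KO and C was -0.59 on the log2 scale with a 95% interval of -1.11 to -0.07 (adjusted p = 0.12, limma), and it passed when only C and KO were fitted (adjusted p = 0.0465). Scaling by total reads left it at -0.06, and turned the difference of DKO and KO from 0.52 (adjusted p = 0.17) to -0.13. DKO against C gave -0.07 for Corin (95% interval -0.53 to 0.40; adjusted p = 0.94, limma) and 0.11 for Furin (95% interval -0.30 to 0.52; adjusted p = 0.89, limma).

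Of the receptor genes, Npr1 differed between DKO and KO, and no receptor gene passed in KO versus C. Npr1 (ENSMUSG00000027931, chromosome 3, 90450591 to 90465866) was 26.9 in both KO libraries, against 41.1, 36.7 and 39.9 in C. In DKO it was 44.4, 73.7 and 46.3. The KO libraries were the lowest and the DKO libraries the highest, with no overlap between any groups. From KO to DKO Npr1 rose 1.95-fold (95% interval 1.43 to 2.66; adjusted p = 0.0120, limma). This call ended without KO 1 (adjusted p = 0.0783), without KO 3 (0.101) and with total reads as the scale (0.32 on the log2 scale, adjusted p = 0.243). KO versus C gave -0.53 (95% interval -0.98 to -0.08; adjusted p = 0.11, limma), or -0.01 when scaled by total reads. It passed without DKO 2 (adjusted p = 0.0101), the library with the highest Npr1 and the highest mitochondrial share, and when only C and KO were fitted (0.00885). DKO against C gave 0.43 (95% interval 0.03 to 0.83; adjusted p = 0.58, limma).

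Npr2 (ENSMUSG00000028469, chromosome 4, 43631935 to 43651244) was 58.9, 58.1 and 75.96 in C, 51.2 and 56.1 in KO, and 53.0, 109.0 and 79.997 in DKO. The KO libraries lay just below C, and DKO spread over and above both. The difference between KO and C was -0.25 (95% interval -0.80 to 0.30; adjusted p = 0.56, limma) and turned to 0.28 with total reads as the scale. DKO against KO gave 0.52 (adjusted p = 0.19), which passed without DKO 1 (0.79, adjusted p = 0.0298) and turned to -0.13 with total reads as the scale.

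Npr3 (ENSMUSG00000022206, chromosome 15, 11839896 to 11907287) was 15.03, 16.002 and 5.65 in C, 7.22 and 12.5 in KO, and 34.5, 15.3 and 6.14 in DKO. All groups overlapped, and the range within C (2.83 times) and DKO (5.62 times) exceeded any difference of means. KO versus C gave -0.21 (95% interval -1.42 to 0.99; adjusted p = 0.84, limma), or 0.28 with total reads as the scale. DKO against C gave 0.40 for Npr3 (95% interval -0.68 to 1.48; adjusted p = 0.83, limma) and 0.27 for Npr2 (95% interval -0.22 to 0.76; adjusted p = 0.74, limma). In the heart Npr3 is known from the endocardium, the inner lining. The summed level of 10 endothelial and endocardial markers was 949 to 1275 in C, 1023 and 1091 in KO, and 956 to 1664 in DKO. The summed level of 8 fibroblast markers was 1731, 1314 and 983 in C 1, 2 and 3. It was 1716 in KO 1 and 1315 in KO 3, and 3163, 2064 and 1191 in DKO 1, 2 and 3. The DKO sums are in the order of Npr3, whereas the KO order was the reverse of Npr3. In C the highest library was C 1 for the sum and C 2 for Npr3, with C 3 the lowest in both. The part of these markers in the Npr3 levels was not tested, and in bulk tissue fewer cells of a type and less RNA per cell cannot be told apart.

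In all, 2 of 7 genes rose in KO against C and 5 did not pass (5 passed when only C and KO were fitted, and 1 without C 1, C 2, C 3 or KO 3), while limma called 13.9% of all tested genes in either direction. The libraries of KO and C did not overlap for 6 of 7 genes, beside 54.3% of all tested genes. In DKO against C limma called 0 of 7 at a background of 0.155%, (0.0738% higher and 0.0812% lower), with 1 (Npr1) at an unadjusted p under 0.05, beside 8.5% of all genes, and 0 by edgeR and DESeq2. The libraries did not overlap for 1 of 7 (13.8% of all genes). In DKO against KO 1 gene rose and 2 fell, at a background of 11.8% (6.08% higher and 5.73% lower), and 4 of 7 did not overlap (41.5% of all genes). Without KO 3 Nppa alone passed in this comparison.

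**Figure D4:**
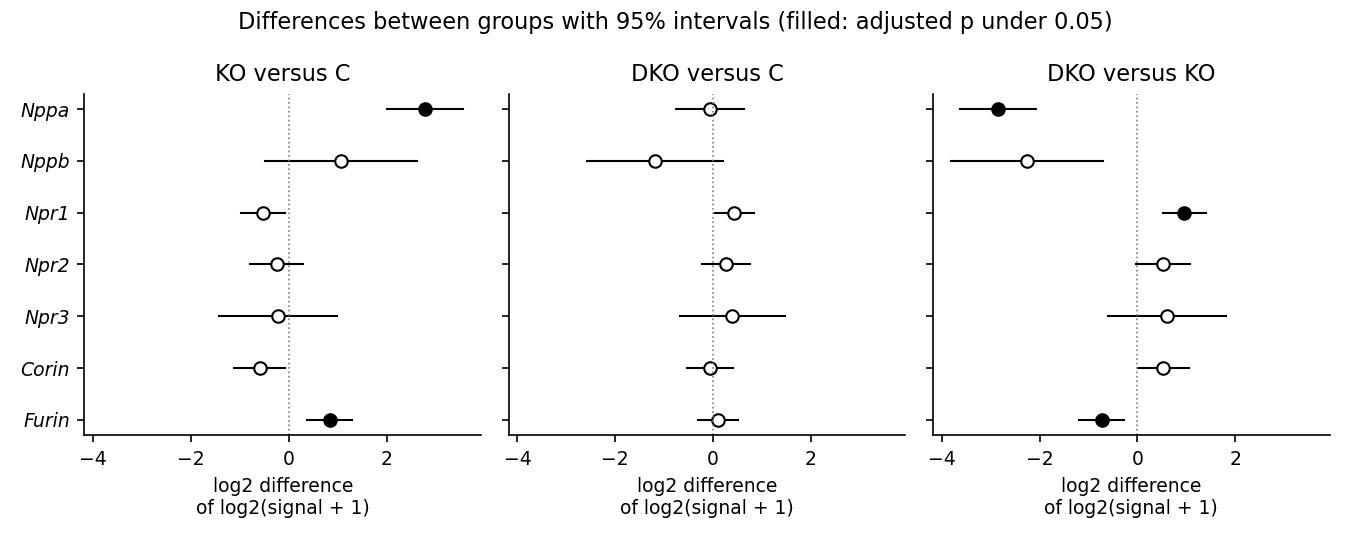
Differences of log2(signal + 1) between group means (horizontal axis) with 95% intervals for the 7 genes (rows) in the 3 comparisons (panels), filled where the adjusted p was under 0.05. Nppa and Furin are filled in KO versus C, none in DKO versus C, and Nppa, Npr1 and Furin in DKO versus KO.

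Levels of different genes were compared per kilobase of the longest annotated transcript. On this scale of signal per kilobase Nppa led in C (345 ± 132, SD, n = 3), followed by Nppb (239 ± 14.1). Npr2 (17.6 ± 2.76) and Corin (16.7 ± 0.837) came next and overlapped, then Npr1 (9.66 ± 0.557), Furin (7.91 ± 0.690) and Npr3 (1.77 ± 0.829). In C the peptide genes thus stood more than an order of magnitude above their receptors and proteases. In KO the order began with Nppa (2339 ± 653, SD, n = 2) and Nppb (570.2 ± 380). Furin (14.8 ± 5.81), Npr2 (14.7 ± 0.935) and Corin (11.5 ± 4.44) followed with overlapping libraries, then Npr1 (6.61 ± 0.00283) and Npr3 (1.43 ± 0.538). In DKO the libraries of Nppa (334 ± 142) and Nppb (153 ± 133) overlapped, and Npr3 (2.70 ± 2.10) was again the lowest. The lowest DKO library of Nppb (27.3) was below the highest of Npr2 (29.8), so these genes overlapped as well.

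Among 12 tested genes of peptide maturation and degradation 2 rose in KO against C, 1 fell and 9 did not pass, with a median log2 difference of 0.39 beside 0.01 for all genes. Over all genes 6.9% were called higher and 7.01% lower. Pcsk6, which encodes the protease that activates corin, went from 29.5 ± 5.65 in C to 58.8 ± 3.11 in KO (adjusted p = 0.00764, limma). Pam, which encodes the peptide-amidating enzyme abundant in the granules of heart muscle cells, went from 190.7 ± 49.2 to 431 ± 20.3 (adjusted p = 0.0109, limma). Mme, which encodes neprilysin, a protease that degrades the peptides, went from 3.66 ± 0.181 to 1.03 ± 0.405 (adjusted p = 0.0193, limma). Both KO libraries lay outside the C range for these 3 genes. The calls of all 3 ended without KO 1 (adjusted p = 0.0652, 0.0610 and 0.0574) or KO 3 (0.0615, 0.0998 and 0.181), that of Pam also without C 3 (0.0517), and that of Mme without C 1, C 2 or C 3 (0.0523 to 0.0611). In DKO against KO Pam fell by 1.26 on the log2 scale (adjusted p = 0.0104, limma) and Mme rose by 1.02 (adjusted p = 0.0450, limma), and the other 10 did not pass. Over all tested genes 6.08% were called higher and 5.73% lower there. Pam then failed without KO 1 (adjusted p = 0.0606) or KO 3 (0.101). Of the fits without 1 library, Mme held without DKO 2 and failed in the other 7 (0.0665 to 0.30). It also failed with total reads as the scale (0.65, adjusted p = 0.105), a pseudocount of 3 (0.0552), quantile normalisation (0.0779) and only those groups in the fit (0.101).

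Among 19 tested genes of cyclic GMP synthesis, breakdown and action 2 rose in KO against C and 1 fell. Over all tested genes 6.9% were called higher and 7.01% lower. The median was 0.10 for this list beside 0.01 for all genes. Prkg1, which encodes cyclic GMP-dependent protein kinase, went from 4.61 ± 1.24 to 8.84 ± 0.167 (adjusted p = 0.0187, limma). Vasp, which encodes an actin regulator phosphorylated by that kinase, went from 26.6 ± 0.759 to 42.2 ± 4.36 (adjusted p = 0.0270, limma). Pde2a, which encodes a cyclic GMP-stimulated phosphodiesterase, went from 105.2 ± 4.99 to 68.1 ± 7.71 (adjusted p = 0.0401, limma), and its difference was -0.09 with total reads as the scale. These 3 calls rested on few libraries. Vasp and Pde2a failed without any single C or KO library (adjusted p = 0.0764 to 0.188 and 0.0959 to 0.241), and Prkg1 without C 2, C 3, KO 1 or KO 3 (0.0691 to 0.121). The remaining 16 did not pass, among them Pln, which encodes the calcium pump inhibitor phospholamban (2660 ± 184 in C, 2405 ± 120 in KO). In DKO against KO Prkg1 fell by 0.97 on the log2 scale (adjusted p = 0.0111, limma) and Pde2a rose by 0.75 (adjusted p = 0.0217, limma). Both failed without KO 1 (adjusted p = 0.0822 and 0.159) or KO 3 (0.0969 and 0.0924). Pde2a was at 0.095 with total reads as the scale (adjusted p = 0.76), and failed when only those groups were fitted (0.0882).

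A list of 29 tested genes held transcription factors known to act on Nppa or Nppb and co-regulators such as Hdac4 and Hdac9. Of these, 3 rose in KO against C and 26 did not pass. Over all tested genes 6.9% were called higher. The median was 0.34 for these 29 genes beside 0.01 for all genes. Tbx20, which encodes a T-box factor of the heart, went from 16.6 ± 2.65 in C to 51.8 ± 2.12 in KO (adjusted p = 0.000454, limma) and stayed called without any single library. Tead1, which encodes a factor that binds M-CAT letters, went from 41.5 ± 3.17 to 94.3 ± 17.6 (adjusted p = 0.00559; 0.0855 without KO 3, limma). Irx4, which encodes a factor of ventricular muscle, went from 22.9 ± 2.46 to 41.1 ± 8.20 (adjusted p = 0.0299, limma), and failed without any single C or KO library (0.0551 to 0.232). Gata4, which encodes a factor that binds GATA letters, was 54.2 ± 4.35 in C and 77.8 ± 6.27 in KO (adjusted p = 0.0739, limma). Nkx2-5, which encodes the factor of the NKX2-5 element, was 85.5 ± 6.71 and 91.0 ± 20.04 (adjusted p = 0.86, limma). These last are named after their values were seen, for the motif matches above. In DKO against KO Tbx20 and Tead1 fell by 1.22 and 1.21 on the log2 scale (adjusted p = 0.00226 and 0.00524; Tead1 0.0870 without KO 3, limma).

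Of 12 other genes annotated within 100000 bases of the pair 7 were in the table and 6 were tested. In KO against C 1 of the 6 rose, beside 6.9% of all tested genes called higher. This was 2510039O18Rik, a protein-coding gene with no assigned name, from 35.6 ± 1.12 to 53.0 ± 6.01 (adjusted p = 0.0397, limma). It failed without any single C or KO library (adjusted p = 0.0887 to 0.282). Clcn6, the chloride channel gene next to Nppa, was 12.6 ± 0.767 in C and 9.40 ± 0.746 in KO (adjusted p = 0.21, limma). Gm13054 is annotated antisense to Nppa and overlaps it. It was below the filter, with 2 to 5 reads in each C library and 32 and 25 in KO, and without a stated strand setting its reads cannot be told apart from those of Nppa.

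Among 10 fetal and stress genes of the ventricle 4 rose in KO against C and 6 did not pass, beside 6.9% of all tested genes called higher, with a median log2 difference of 0.97 beside 0.01 for all genes. edgeR called 4 of the 10 and DESeq2 7. The list was drawn up with earlier results of these data known. Myh7, the fetal myosin heavy chain gene, fell by 4.43 on the log2 scale from KO to DKO after a rise of 3.64 from C to KO (adjusted p = 6.33e-06 and 2.81e-05, limma). Ankrd1, a gene induced by stretch, fell by 3.09 after a rise of 2.77 (adjusted p = 0.00226 and 0.00318, limma). The other rises were of Rcan1, an inhibitor of calcineurin (77.1 ± 8.76 in C, 265 ± 123 in KO; adjusted p = 0.00380, limma), and Fhl1, a sarcomere-bound stretch sensor (63.98 ± 8.42 and 131 ± 34.7; adjusted p = 0.00747, limma; 0.0887 without KO 1). Acta1, which encodes skeletal alpha-actin of the fetal heart, ranged from 60.3 to 860 within DKO, lowest in DKO 1 and highest in DKO 3, which is the order of Nppb there. The skeletal muscle markers given above differed between the groups, and their part in the level of Acta1 was not tested. In DKO against KO 6 of the 10 fell, beside 5.73% of all tested genes called lower, Rcan1 by 1.97 on the log2 scale and Fhl1 by 1.10 (adjusted p = 0.00225 and 0.00579, limma; Fhl1 0.0705 without KO 1). Acta1 fell by 3.42 on the log2 scale (adjusted p = 0.0181; 0.126 without KO 1, 0.1004 without KO 3 and 0.0614 by edgeR, limma) and Xirp2, the gene of an actin-binding intercalated disc protein, by 1.51 (adjusted p = 0.0155; 0.150 without KO 1, limma). In DKO against C limma called 0 of 76 genes over all these lists, with 9 at an unadjusted p under 0.05 and 0 by edgeR and DESeq2. Over all tested genes limma called only 0.155%, with 8.5% at an unadjusted p under 0.05, so these counts do not set the lists apart. Without DKO 3 limma called 1 of the 76. The gene of smallest p was Dpp4 among the maturation and degradation genes (1.70 in C, 4.10 in DKO; adjusted p = 0.45, limma), where it encodes a peptidase that trims brain natriuretic peptide. It was Pde10a among the cyclic GMP genes (1.58 and 2.64; adjusted p = 0.59, limma). Among the transcription factors and co-regulators it was Zfpm2 (5.39 and 7.76; adjusted p = 0.52, limma). Among the fetal genes it was Myh7 (98.7 and 57.7; adjusted p = 0.47, limma).

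**Figure D5:**
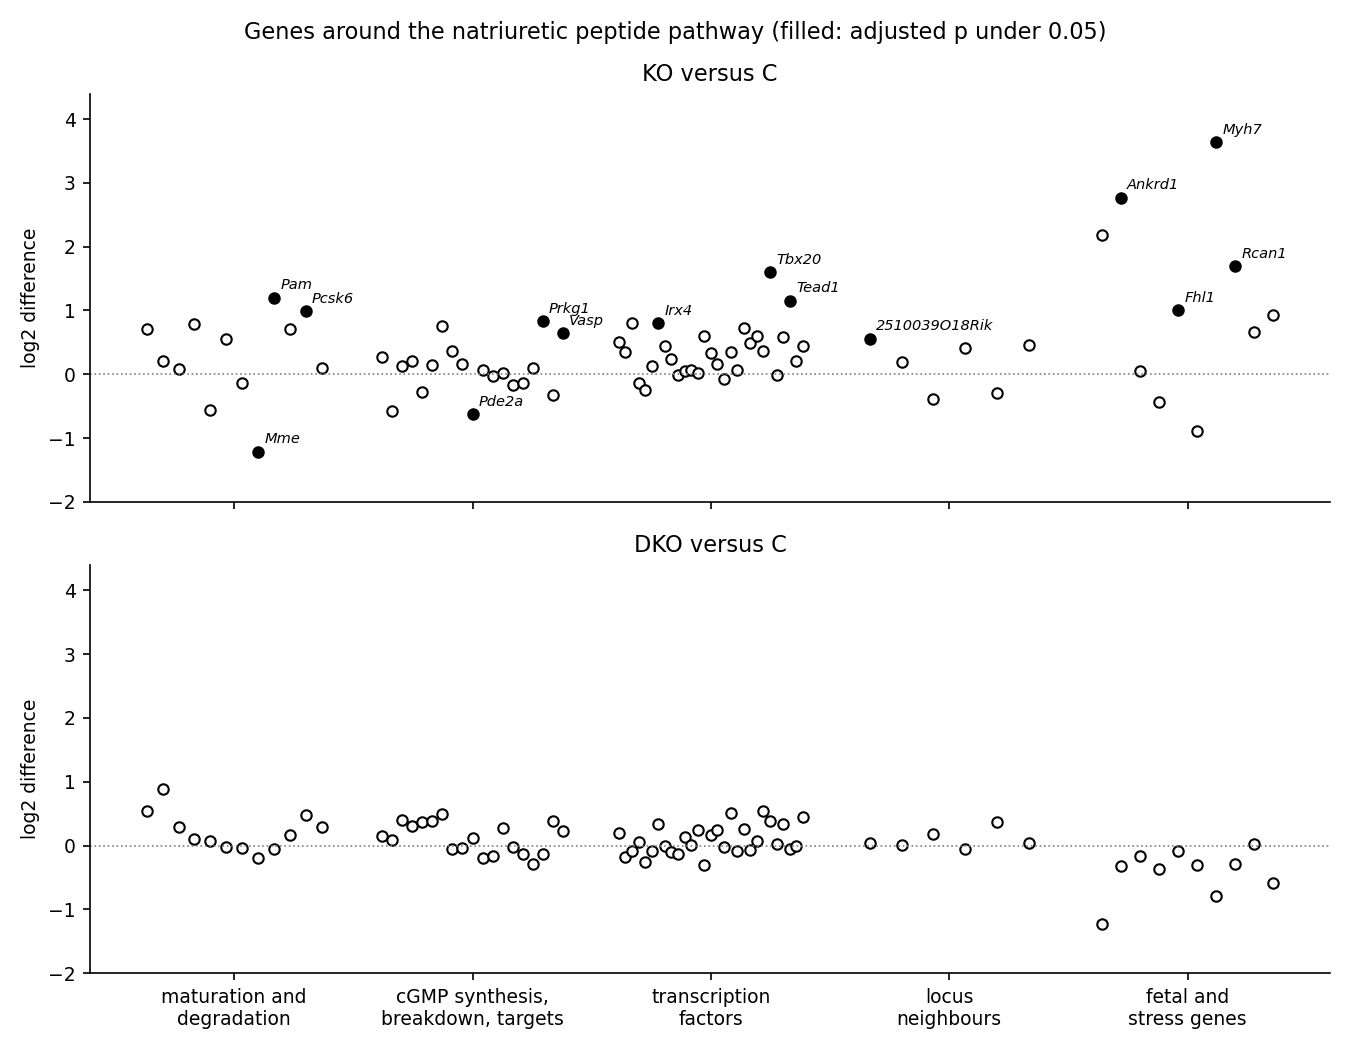
Log2 differences (vertical axis) of the genes of 5 lists around the natriuretic peptides (horizontal axis, genes in alphabetical order within a list) in KO versus C (top) and DKO versus C (bottom), filled and named where the adjusted p was under 0.05. In KO versus C 14 of 76 distinct genes are filled, and 0 in DKO versus C, beside 13.9% and 0.155% of all tested genes called.

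The genes whose level followed Nppa most closely over the 8 libraries were found by the root mean square distance between centred log2 profiles. The pool held 6634 named genes with a mean over all 8 libraries of at least 13.15, the median of tested genes. That mean includes the KO libraries, so genes high in KO alone could enter the pool. Ankrd1 was nearest (0.27), followed by Uck2 (0.43), which encodes a uridine-cytidine kinase, Kcne1 (0.45), which encodes a potassium channel subunit, Rcan1 (0.49), and Synpo2l (0.51), which encodes a Z-disc protein. Ankrd1 was 3156 and 2068 in KO, 545.1 in C 2 and 663.6 in DKO 3, the same highest libraries per group as for Nppa. That is no separate evidence, since Ankrd1 was chosen for its likeness to Nppa over these libraries. Uck2 was 102.2 and 79.7 in KO and 16.8 to 27.5 in the other 6 libraries. Kcne1 was 38.4 and 42.8 in KO, 4.17 to 10.2 in C and 4.30 to 4.64 in DKO, so it passed the cut only through KO. Nppb was at rank 633 from Nppa, with a distance of 1.09.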

How the data were processed

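Poly(A) RNA was sequenced from 8 ventricular samples. The deposited table holds a normalised signal. Tools listed in the submitters' processing notes are RSEM 1.3.1, cutadapt and limma, with the build GRCm38 and no roles. The annotation, the filter and whether strand was used: not given in the sources used here. Every value was a whole number of reads plus 0.5 (100% within 0.001 reads) over an effective library size, so reads were recovered. Genes whose signal reached 1 in 2 or more libraries (13544) were fitted with limma 3.58.1 (R 4.3.3) on log2(signal + 1) in 3 group means, with an intensity trend and 5 residual degrees of freedom, and p-values were Benjamini-Hochberg adjusted over all genes (threshold 0.05). Differences understate the change of low genes. Alternatives were pseudocounts of 0.5 and 3, other filters and scalings, no trend, fits of 2 groups, edgeR 4.0.16, DESeq2 1.42.0, a replicate block and leaving out each library. The code was tested on simulated reads. The pathway genes named are those past the threshold, at most 6 per list and comparison by size, or the smallest p, with some others named after their values were seen; some genes under this rule are not reported here. Members and lists were chosen with earlier results of these data known. Coordinates are from GENCODE M21 (13666 of 13677 identifiers matched), and promoters from RefSeq GRCm38.p6, which listed all 8 genes.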

Additional observations from a re-analysis of the deposited data

How the results depend on the processing

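The direction of Nppa and Furin in KO versus C and of Nppa, Npr1 and Furin in DKO versus KO was the same under all 20 alternatives. With only the 2 groups compared in the fit, 5 of the 7 genes passed in KO versus C. Leaving out 1 library gave 1 to 3 passing genes in KO versus C, 1 to 3 in DKO versus KO and 0 in DKO versus C. Of the pathway genes 14 passed in KO versus C, 45 with total reads as the scale, 33 with only those groups in the fit, and 5 to 25 without 1 library. In DKO versus KO 12 passed, 45 with total reads as the scale and 6 to 17 without 1 library, and in DKO versus C 0, with 0 to 1 without 1 library. With total reads as the scale the median of all tested genes itself was 0.48 in KO versus C and -0.57 in DKO versus KO. How many of all tested genes passed under these alternatives is not reported here, so the pathway counts do not set the lists apart. The 14 differences that changed sign were uncalled. With total reads as the scale they were Npr2 (0.28 in KO versus C, -0.13 in DKO versus KO), Npr3 (0.28 in KO versus C), Corin (-0.13 in DKO versus KO) and Furin (-0.012 in DKO versus C). Nppa in DKO versus C became 0.052 after quantile normalisation, 0.23 without C 2, 0.01 without DKO 1 and 0.18 without DKO 2. Npr3 became 0.03 without C 2 and 0.14 without KO 1 in KO versus C, and -0.04 without C 3 and -0.18 without DKO 1 in DKO versus C, and Corin 0.11 without DKO 2 there. Over the fits without 1 library the ranges were -0.39 to 0.23 for Nppa, -0.18 to 0.98 for Npr3 and -0.21 to 0.11 for Corin in DKO versus C, and -0.65 to 0.14 for Npr3 in KO versus C. The causes were not tested. Same-numbered libraries were not treated as pairs. The correlations of their deviations were -0.27 to 0.22, with 5 of 7 pairs over 0.1, beside -0.36 to 0.21 for differently numbered libraries. Deviations from the mean of so few libraries are tied to each other, so these correlations cannot decide whether the libraries are paired. With the replicate block 2 genes passed in KO versus C and 3 in DKO versus KO, and no call of the 7 genes changed; those of Irx4 (adjusted p = 0.0585), Pde2a (0.0855) and 2510039O18Rik (0.0818) in KO versus C and of Pde2a in DKO versus KO (0.0523) ended. Without KO 1 or KO 3 the lone KO library is assumed to vary like the other groups.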

Other observations

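The profiles nearest to Nppb belonged to other genes than those nearest to Nppa. Among the nearest were Ankrd23 (distance 0.62), which encodes an ankyrin repeat protein of the sarcomere, Tnfrsf12a (0.65), the receptor gene of the cytokine TWEAK, Myot (0.69), which encodes the Z-disc protein myotilin, and Mybpc2 (0.72), which encodes the fast skeletal myosin-binding protein C. These distances were larger than the 0.27 to 0.51 of the genes nearest to Nppa. These 4 were lowest in DKO 1, the library with the lowest Nppb, where Tnfrsf12a was 13.8 against 17.3 to 150.4 in the other libraries. That is no separate evidence, since they were chosen for their likeness to Nppb over these libraries. Mybpc2 was 5.86 in DKO 1 and 6.37 in DKO 2, against 21.9 to 90.1 elsewhere. Myot was 38.3 and 29.8 in KO, with means of 12.3 in C and 5.13 in DKO, so it passed the cut on level only through KO. The skeletal muscle markers, given above, also differed between the groups, and their part in this likeness was not tested.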
